A study of Drosophila melanogaster with 8 samples.

Results

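The X chromosome interior is described here through its γH2Av regions, stretches of DNA at which chromatin carrying phosphorylated H2Av was recovered above input in Drosophila S2 cells. Peaks of the 4 ChIP-seq lists that overlapped by at least 1 bp were merged, and merged regions on X that started above 2 Mb and below 20.4 Mb of the dm3 build were kept. There were 567 such regions of 4731 in all. S2 is a cultured line of male type. Cells labelled WT, described in the study's methods as untreated, were compared with cells labelled RNAi dH1, in which the linker histone dH1 was depleted over 8 days by double-stranded RNA, given at 100 μg on days 1, 4 and 7. Each condition had 2 replicates, each with a γH2Av ChIP and an input, and the peaks of each ChIP library had been called against its own input. No ChIP-seq sample received a control double-stranded RNA, so that an effect of the RNA treatment and that of dH1 depletion cannot be told apart. The lists hold no reads, so that depth is unknown and the knockdown could not be checked.

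H2Av is the Drosophila histone variant that serves both as H2A.X and as H2A.Z. Its phosphorylated form, γH2Av, spreads over chromatin next to DNA breaks, while the kinase Jil1 can place this mark at promoters of active genes, so that a peak need not mark a break. dH1 binds nucleosomes and the DNA that links them and compacts chromatin. The single X of Drosophila males is the target of dosage compensation, in which the MSL complex acetylates histone H4 over active X genes and raises their transcription, and Jil1 is abundant on this chromosome. None of these factors was measured in these data. No genome or annotation of the dm3 build was used here, so that regions are given by position, without genes or sequence.

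Along X, γH2Av regions were dense at the far end of the interval and sparse in its middle. The 18 whole bins of 1 Mb held between 8 and 58 regions, with a median of 29 and a coefficient of variation of 50.2%. The bins with the most regions were those from 15 to 16 Mb (58 regions), 19 to 20 Mb (54 regions) and 16 to 17 Mb (53 regions). The bins with the fewest were those from 12 to 13 Mb (8 regions), 3 to 4 Mb (15 regions) and 4 to 5 Mb (16 regions). The step at 13 Mb was abrupt, since the next bin, from 13 to 14 Mb, held 45 regions. The last 0.4 Mb of the interval, from 20 Mb, held 22 regions.

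The same profile was seen in each library. In the bin from 15 to 16 Mb, WT replicate 1 had 52 peaks, WT replicate 2 had 55, RNAi dH1 replicate 1 had 56 and RNAi dH1 replicate 2 had 51. In the bin from 12 to 13 Mb the same libraries had 7, 8, 5 and 0 peaks. Peak numbers per bin correlated between any 2 libraries with Pearson's r of 0.909 to 0.969 over the 18 bins, a description in which the bins share the genome and the antibody. The profile was more uneven in RNAi dH1, where the coefficient of variation over bins was 74.7% and 101% for replicates 1 and 2, than in WT, where it was 54.0% and 56.1%.

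**Figure D1:**
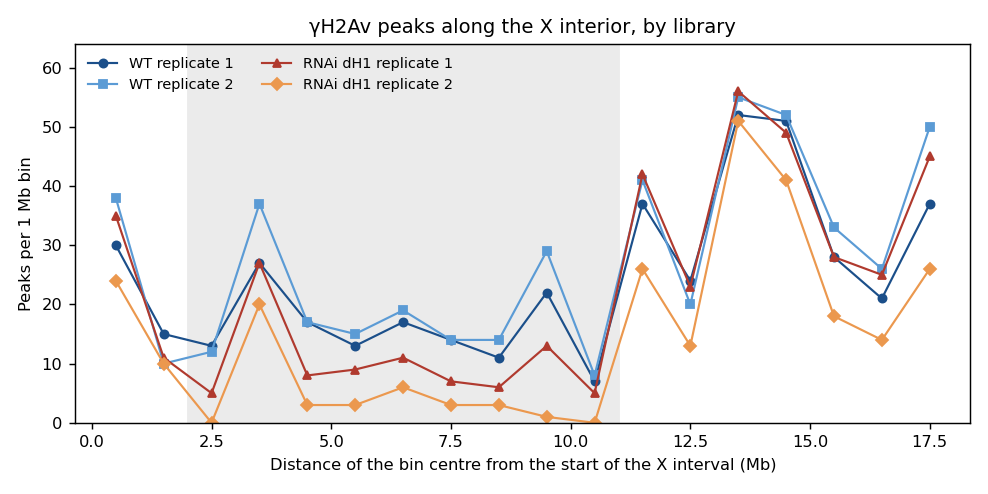
Peaks per 1 Mb bin along the X interior in each library, against the distance of the bin's centre from the start of the interval at 2 Mb (Mb). The grey band marks the stretch from 4 to 13 Mb of X, where the RNAi dH1 libraries had 91 and 39 peaks against 141 and 165 in WT, while in the bin with the most regions all 4 libraries had between 51 and 56 peaks.

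Whether dH1 depletion changed the number of γH2Av peaks on X was addressed per library. WT replicate 1 had 454 peaks in the X interior and WT replicate 2 had 510. The RNAi dH1 libraries had 423 and 278 peaks, for replicates 1 and 2. Both RNAi dH1 libraries thus lay below both WT libraries, and replicate 2 lay far below the others. Mean peak number was 482 ± 39.6 for WT and 350.5 ± 103 for RNAi dH1 (SD, n = 2, two-sided exact permutation test, p = 0.333, 0.667 after Benjamini-Hochberg adjustment over 6 tests). With 2 libraries against 2 this p is the smallest that the test allows. The difference of -131.5 peaks became -59 without RNAi dH1 replicate 2 and -204 without RNAi dH1 replicate 1. List length bears on a raw count, and with the 3037 top peaks of each list the difference was -61 peaks.

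X also had a smaller share of the peaks of a library after dH1 depletion. X peaks made up 12.1% of the list in WT replicate 1 (95% Wilson interval 11.1 to 13.2%) and 12.99% in WT replicate 2 (12.0 to 14.1%). In RNAi dH1 they made up 11.3% (10.4 to 12.4%) and 9.15% (8.18 to 10.2%), for replicates 1 and 2. The intervals cover counting error only. The mean shares were 12.5 ± 0.652% and 10.2 ± 1.54% (SD, 2 libraries each, exact permutation p = 0.333), with no overlap between conditions. The difference of -2.29 percentage points was -2.01 with the 3037 top peaks of each list, and it became -1.20 without RNAi dH1 replicate 2. Counted among peaks on the interiors of X, 2L, 2R, 3L and 3R alone, so that unplaced sequence did not enter, the X share was 17.3 and 16.5% in WT and 14.8 and 12.2% in RNAi dH1.

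In WT the peaks covered 1.25 and 1.34 Mb of X, and after depletion 1.10 and 0.764 Mb. This was 6.78 and 7.29% of the interval in WT and 5.99 and 4.15% in RNAi dH1. The difference of the means was -0.362 Mb (n = 2, exact permutation p = 0.333), and it became -0.192 Mb without RNAi dH1 replicate 2 and -0.227 Mb with lists cut to equal length. The mean over libraries of the autosomal arm interiors, defined as for X at 2 Mb from the ends of 2L, 2R, 3L and 3R, was 29.5 ± 3.48 peaks per Mb in WT and 27.6 ± 3.72 in RNAi dH1 (SD, n = 2), where the libraries of the conditions overlapped. On X the same means were 26.2 ± 2.15 and 19.05 ± 5.57 peaks per Mb.

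The lower peak number was unevenly spread along X. In 9 of the 18 whole bins both RNAi dH1 libraries had fewer peaks than both WT libraries, against 21.9% of all 96 bins of X and the 4 arm interiors and 15.4% of the 78 bins of the arms alone. The arms differed, with 4 of 18 such bins on 2L, 0 of 17 on 2R, 6 of 20 on 3L and 2 of 23 on 3R. In 0 of the X bins did both RNAi dH1 libraries have more, against 5 of the 78 arm bins and 0 of the 17 bins of 2R. Of the 9 bins, 7 followed each other from 6 to 13 Mb, and the others were those from 4 to 5 Mb and from 16 to 17 Mb. The longest such series on another arm was 3 bins, on 3L. The count rests on all libraries, and leaving out 1 asks for fewer of them to agree, which favours a higher count. It became 14 without WT replicate 1 and 11 without WT replicate 2. Without RNAi dH1 replicate 1 it became 17, and without RNAi dH1 replicate 2 it stayed at 9. No arm counts were made under these omissions, so that these counts have no background share.

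The ratio of peak numbers between conditions took low values in some X bins and values near 1 in others. The mean of the RNAi dH1 libraries divided by that of the WT libraries lay between 0.200 and 0.472 in 8 bins, all between 4 and 13 Mb, and between 0.734 and 1 in the other 10. On the arms this ratio was below 0.5 in 1 of 78 bins, on 3L, and its median was 0.941. The lowest X value was that of the bin from 4 to 5 Mb, which had 13 and 12 peaks in WT and 5 and 0 in RNAi dH1. In the bin from 11 to 12 Mb there were 22 and 29 peaks in WT, and 13 and 1 in RNAi dH1. From 13 Mb on, the ratio was between 0.754 and 1 in each whole bin. It compares numbers without matching peaks, and in the bin from 14 to 15 Mb, at 0.818, 9 of 29 regions were called in all 4 libraries.

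**Figure D2:**
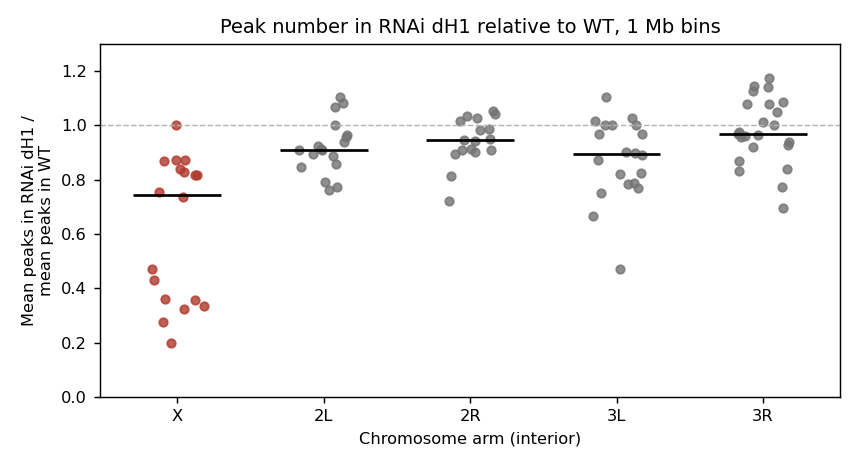
Mean number of peaks in the 2 RNAi dH1 libraries divided by the mean in the 2 WT libraries (no unit), with 1 point per whole 1 Mb bin and a bar at the median of each arm interior. On X 8 bins lie at or below 0.472 and the other 10 at or above 0.734, while on 2L, 2R, 3L and 3R 1 of 78 bins lies below 0.5.

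The stretch from 4 to 13 Mb was set after these bins were seen, by the same contrast, so that its values are a description and no test of it is given. WT replicate 1 had 141 peaks there and WT replicate 2 had 165. The RNAi dH1 libraries had 91 and 39 peaks, for replicates 1 and 2. On the rest of the X interior the WT libraries had 313 and 345 peaks, and the RNAi dH1 libraries had 332 and 239. There RNAi dH1 replicate 1 lay between the WT libraries and replicate 2 below them, so that the difference of means, -43.5 peaks, became 3 without RNAi dH1 replicate 2. Within the stretch the difference was -88 peaks and it was -62 without that library. With the 3037 top peaks of each list, the stretch had 86 and 85 peaks in WT, and 49 and 39 in RNAi dH1, a difference of -41.5 peaks between the means. On the rest of X that difference was -19.5 peaks.

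The bin from 5 to 6 Mb stood apart from its neighbours. It had 27 and 37 peaks in the WT libraries, and 27 and 20 in the RNAi dH1 libraries. All 16 of its regions that were called in the 4 libraries lay between X 5507124 and 5844117, a span of 337 kb. In that span WT had 20 and 29 peaks, and after depletion there were 24 and 20, for replicates 1 and 2. In the rest of the bin WT had 7 and 8 peaks, and after depletion there were 3 and 0. The span was chosen after its values were seen.

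Calls were then compared region by region. Of the 567 X regions, 237 were called in all 4 libraries, 41.8%, against 49.0% of all regions of the series and 57.3% of those on the arm interiors. Both WT libraries called 393 X regions, 69.3%, where the series had 61.4% and the arms 68.3%. Both RNAi dH1 libraries called 253, 44.6%, where the series had 56.4% and the arms 64.8%. For WT calls X was thus close to the arms, where 2L had 69.8% and 3L 70.6%. For RNAi dH1 calls the X share lay below that of each arm, the lowest being 60.7% on 3L. The share of the WT targets of X that both RNAi dH1 libraries called was 60.3% (237 of 393), against 83.9% (1585 of 1889) on the arms. With the 3037 top peaks of each list it was 72.7% (208 of 286) on X and 91.2% (1386 of 1520) on the arms. No test is given for these shares, since neighbouring regions are not independent and regions are not replicates of a condition.

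WT-only regions, called in both WT libraries and in no RNAi dH1 library, numbered 53 on X. This was 9.35% of the X regions, against 3.64% in the series and 2.64% on the arm interiors, and X held 30.8% of all 172 WT-only regions but 12.0% of all regions. Among the arms 3L had the highest share of WT-only regions, 4.95%. There were 3 dH1-only regions on X, 0.529%, against 1.06% in the series and 0.651% on the arm interiors. With the 3037 top peaks of each list the X counts were 41 WT-only and 6 dH1-only of 429 regions, 9.56 and 1.399%. On the arms they were then 37 and 42 of 2391 regions, 1.55 and 1.76%, so that the share of dH1-only regions on X lay near that of the arms. Leaving out 1 library asks for fewer calls and raised the counts. WT-only regions on X then numbered 122 without WT replicate 1, 89 without WT replicate 2, 153 without RNAi dH1 replicate 1 and 56 without RNAi dH1 replicate 2. The dH1-only regions on X numbered 5, 15, 6 and 19, in the same order. No arm counts were made under these omissions, so that these counts have no background share beside them. Of the 53 WT-only regions, 40 lay between 4 and 13 Mb, where they were 21.7% of the 184 regions. From 13 Mb on there were 11 of 327 regions, 3.36%. All 3 dH1-only regions lay beyond 14 Mb.

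The most frequent partial pattern on X was a region called in both WT libraries and in RNAi dH1 replicate 1 but not in replicate 2. It held 100 X regions (17.6%), against 7.74% of the regions on the arm interiors. A region missed by RNAi dH1 replicate 1 alone was found 3 times on X (0.529%), near the 0.615% on the arms. WT replicate 2 alone called 66 X regions and WT replicate 1 alone 33, while RNAi dH1 replicates 1 and 2 alone called 16 and 2. These were 11.6, 5.82, 2.82 and 0.353% of the X regions, against 8.82, 4.27, 2.13 and 0.687% on the arms. The X regions of RNAi dH1 replicate 2 were thus nearly a subset of those of the other libraries, and the same held for its arm regions. Of its 263 X regions, 96.2% were also called in RNAi dH1 replicate 1, which had 405, and the shared 253 regions were 62.5% of the latter. On the arms these 2 shares were 96.9 and 78.8%. Of the 441 X regions of WT replicate 1, 89.1% were shared with WT replicate 2, and these were 78.9% of the 498 regions there. For the arms the WT shares were 90.6 and 76.4%.

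Peaks missing in RNAi dH1 were mostly weak in WT. Each peak was ranked by the caller's score within its list, where percentile 0 is the weakest peak, because scores grow with depth and cannot be compared between libraries. WT targets of X at a mean percentile of at least 75 in WT were called by both RNAi dH1 libraries in 68 of 69 cases. Between percentiles 50 and 75 the number was 98 of 110, and between 25 and 50 it was 61 of 132. Below percentile 25 it was 10 of 82. The arms had the same order, with 539 of 545, 615 of 643, 361 of 480 and 70 of 221 from the highest class to the lowest. RNAi dH1 replicate 2 had the shortest list, with 3037 peaks, and a short list lacks weak peaks. The part of list length in this order was not tested.

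The same numbers are given for the stretch from 4 to 13 Mb as a description, since its low calls in RNAi dH1 were what set it. Below percentile 25, 0 of 46 targets there were called by both RNAi dH1 libraries. On the rest of X the number was 10 of 36 (27.8%) and on the arms 70 of 221 (31.7%). Between percentiles 25 and 50, 25% (11 of 44) were called in the stretch, 56.8% (50 of 88) on the rest of X and 75.2% (361 of 480) on the arms. Between percentiles 50 and 75 the numbers were 17 of 21 targets in the stretch and 81 of 89 on the rest of X. In the class of percentiles 25 to 50 of the stretch, RNAi dH1 replicate 1 called 37 of 44 targets and replicate 2 called 12, so that most of the missing calls were those of replicate 2. These numbers use the full lists. With the 3037 top peaks of each list, both RNAi dH1 libraries called 45.3% (29 of 64) of all WT targets of the stretch. On the rest of X they called 80.6% (179 of 222).

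**Figure D3:**
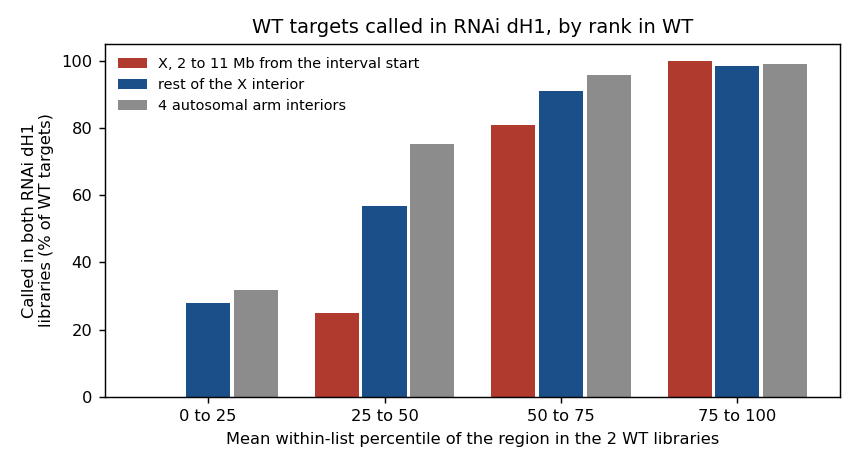
Share of regions called in both WT libraries that were also called in both RNAi dH1 libraries (%), by the mean within-list percentile of the region in the WT libraries, for the X stretch from 4 to 13 Mb, the rest of the X interior and the 4 autosomal arm interiors. Bars are shares of regions with no error given, since regions are not replicates, and below percentile 25 they are 0, 27.8 and 31.7%.

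Regions called in all 4 libraries also stood lower in RNAi dH1 lists on X. Their median percentile on X was 63.7 and 61.3 in the WT libraries, and 54.9 and 42.1 in the RNAi dH1 libraries. The RNAi dH1 mean was below the WT mean in 188 of 237 regions, with a median difference of -9.34 percentile points. On the arms it was lower in 925 of 1585 regions, with a median difference of -2.26 points. A short list lacks weak peaks and lowers the percentile of those it holds. With the 3037 top peaks of each list, the median difference was -6.98 points on X, with 151 of 208 regions lower, and 0.745 points on the arms. From 4 to 13 Mb it was -14.8 points over 33 regions with the full lists and -9.16 points over 29 regions with the equal lists. On the rest of X it was -9.25 points with the full lists and -6.54 points with the equal lists. The share of regions lower in RNAi dH1 was 80.4 and 73.2% there, against 72.7 and 69.0% in the stretch. Lower standing in the RNAi dH1 lists was thus not confined to the stretch.

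X was set beside the autosomal arm interiors within each library. Over the X interior as a whole, peaks were fewer per Mb, narrower and of lower rank in each of the 4 libraries. Density on X was 24.7 and 27.7 peaks per Mb in the WT libraries, and 22.99 and 15.1 in the RNAi dH1 libraries. On the arms it was 27.0 and 31.9 in WT, and 30.2 and 24.9 in RNAi dH1. X was lower in 4 of 4 libraries, with a mean difference of -5.90 ± 3.30 peaks per Mb (SD, n = 4, exact sign-flip permutation test, two-sided p = 0.125, 0.125 after adjustment over 4 tests). This p is the smallest that 4 libraries allow. The gap to the arms was -2.34 and -4.21 peaks per Mb in WT, and -7.22 and -9.83 in RNAi dH1. The lower density did not hold along all of X. From 4 to 13 Mb there were 15.7 and 18.3 peaks per Mb in WT, and 10.1 and 4.33 in RNAi dH1. From 2 to 4 Mb, X was also below the arms, with 22.5 and 24 in WT, and 23 and 17 in RNAi dH1. All of X outside 4 to 13 Mb had 33.3 and 36.7 in WT, and 35.3 and 25.4 in RNAi dH1, above the arms in each library. S2 cells carry fewer copies of X than of the autosomes, and the part of copy number in the calls was not tested.

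Median peak width on X was 2188 and 2141 bp in the WT libraries, and 1999 and 2158 bp in the RNAi dH1 libraries. On the arms it was 2615 and 2579 bp in WT, and 2467 and 2460 bp in RNAi dH1. The X value was below the arm value in each library, with a mean difference of -409 ± 73.0 bp (SD, n = 4, exact sign-flip permutation p = 0.125). Between conditions, X widths were 2164 ± 33.2 bp in WT and 2078 ± 112 bp in RNAi dH1 (SD, 2 libraries each, exact permutation p = 0.667). The RNAi dH1 replicates lay on either side of WT replicate 2. The difference of -85.8 bp became -165 bp without RNAi dH1 replicate 2, -6.50 bp without RNAi dH1 replicate 1 and 108 bp once peaks scoring below 100 were dropped.

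The median percentile of X peaks was 43.3 and 36.3 in WT, and 35.5 and 37.9 in RNAi dH1. The median arm peak stood between 52.9 and 56.0 in the 4 libraries. The X value was lower in 4 of 4 libraries, with a mean difference of -15.8 ± 2.43 percentile points (SD, n = 4, exact sign-flip permutation p = 0.125). The weakest peaks of a list, those below percentile 10, made up between 10.98 and 16.3% of its X peaks and between 7.69 and 8.71% of its arm peaks. Those from percentile 90 on made up between 5.44 and 7.65% of the X peaks and between 10.2 and 10.7% of the arm peaks. Between conditions the X medians overlapped, with means of 39.8 ± 4.99 in WT and 36.7 ± 1.68 in RNAi dH1 (SD, 2 libraries each, exact permutation p = 0.667), and the difference of -3.06 points became 0.47 without WT replicate 1, -6.59 without WT replicate 2 and -1.87 without RNAi dH1 replicate 1.

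**Figure D4:**
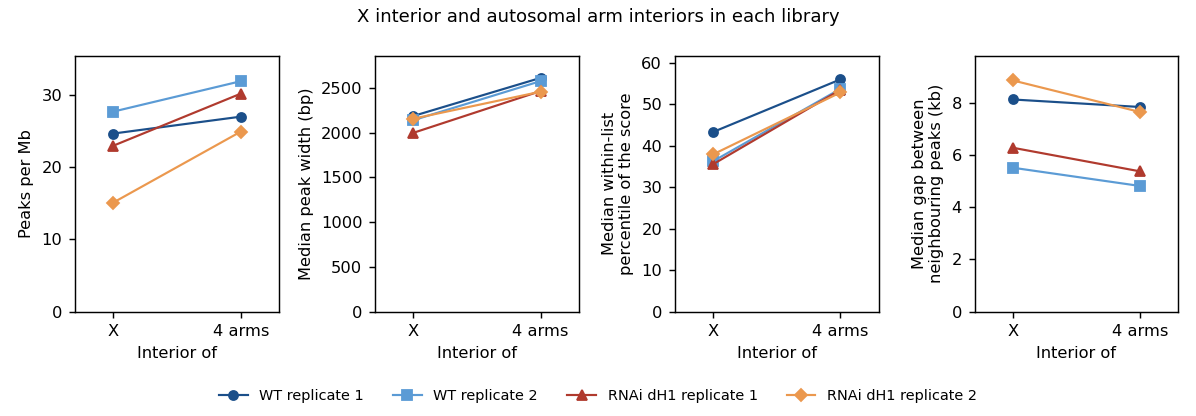
Peaks per Mb, median peak width (bp), median within-list percentile of the score and median gap between neighbouring peaks (kb) on the X interior and on the 4 autosomal arm interiors, with 1 line per library. Over the whole X interior, density, width and percentile are lower than on the arms in each of the 4 libraries and the gap is longer. Outside 4 to 13 Mb, X density was above that of the arms in each library.

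Spacing followed the density. The gap between neighbouring merged X regions had a median of 5.67 kb, quartiles of 1.53 and 26.3 kb, and a range from 0.008 to 443 kb. Of 566 gaps, 338 (59.7%) were at most 10 kb long and 53 were over 100 kb. Regions therefore came in runs separated by empty stretches. Joined over gaps of at most 10 kb they formed 229 runs, of which 116 were single regions, 20.5% of the X regions. On the arm interiors 63.0% of 2761 gaps were at most 10 kb long and 205 were over 100 kb. There 430 of 1026 runs were single regions, 15.6% of the arm regions. Regions thus came in runs on the arms as well as on X. From 4 to 13 Mb the median gap was 12.4 kb, and from 13 Mb on it was 4.08 kb.

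The longest gaps were X 11913330 to 12356137 (443 kb), X 4813935 to 5202359 (388 kb) and X 7218047 to 7587193 (369 kb), all within the stretch from 4 to 13 Mb. No library had a peak in them. The largest run held 17 regions in 77.6 kb at X 19531965 to 19609550, all of which were called in WT replicate 2, 11 in WT replicate 1, 13 in RNAi dH1 replicate 1 and 8 in RNAi dH1 replicate 2. The next were X 13606687 to 13678530, where 9 of 13 regions had a call in every library, and X 15625775 to 15706670, where 9 of 11 did. In the former, RNAi dH1 replicate 1 called 13 regions and both WT libraries 11 each.

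Within a library the median gap between peaks on X was 8.14 and 5.52 kb in WT, and 6.29 and 8.88 kb in RNAi dH1. It was longer on X than on the arms in 4 of 4 libraries, by 0.779 ± 0.389 kb (SD, n = 4, exact sign-flip permutation p = 0.125). This difference became 1.69 kb (p = 0.25 by the same exact test) once peaks scoring below 100 were dropped. The conditions overlapped, with means of 6.83 ± 1.85 kb in WT and 7.58 ± 1.83 kb in RNAi dH1 (SD, 2 libraries each, exact permutation p = 0.667). The sign of the difference of 0.750 kb turned without RNAi dH1 replicate 2 (-0.543 kb) and without WT replicate 2 (-0.561 kb), and the value became 2.06 kb without WT replicate 1 and 2.04 kb without RNAi dH1 replicate 1.

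Merged X regions were between 1008 and 15605 bp wide, with a median of 2244 bp. Regions called in more libraries were wider, and those called in all 4 had the highest median rank in each library. The median width was 1640 bp for the 117 regions called in 1 library, 1792 bp for the 97 called in 2, 2090 bp for the 116 called in 3 and 2940 bp for the 237 called in 4. In part this follows from merging, since a region spans all of its peaks. In WT replicate 1 the median percentile in these classes was 16.04, 17.2, 35.5 and 63.7. In RNAi dH1 replicate 2 it was 9.10, 6.88, 11.4 and 42.1, with no rise from 1 to 2 libraries. WT-only regions had a median width of 1830 bp and a largest width of 3572 bp. They stood at median percentiles of 16.8 and 17.5 in WT replicates 1 and 2. These medians were close to those of all 97 regions called in 2 libraries, of which WT-only regions are a part. There the median width was 1792 bp and the WT percentiles were 17.2 and 18.6. On X 69 regions (12.2%) were at least 5000 bp wide, against 17.9% on the arms. Of these 69, 43 were called in all 4 libraries, as were 237 of all 567 X regions (41.8%). Merging bears on this too, since it widens regions with several calls.

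**Figure D5:**
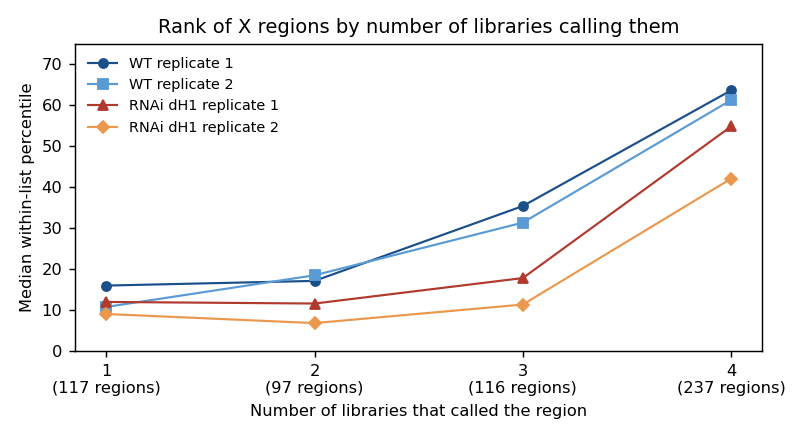
Median within-list percentile of X regions in each library, by the number of libraries that called the region, where percentile 0 is the weakest peak of the list. In WT replicate 1 the values are 16.04, 17.2, 35.5 and 63.7 for regions called in 1, 2, 3 and 4 libraries.

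The strongest X regions were chosen by a fixed rule, as those called in all 4 libraries whose poorest rank over the libraries was best, rank 1 being the highest score of a list. X 15727792 to 15736394, 8603 bp wide, ranked 20 and 50 in the WT libraries and 23 and 28 in the RNAi dH1 libraries. It was above percentile 98 of each list. X 15750576 to 15755768 nearby ranked 81 and 170 in WT and 129 and 148 in RNAi dH1. X 17521011 to 17527332 ranked 58 and 41 in WT and 145 and 206 in RNAi dH1, with lower positions in both RNAi dH1 lists. X 16294335 to 16299259 ranked 199, 243, 267 and 201, and X 19090050 to 19096144 ranked 302, 279, 256 and 184, in the same order of libraries. All 5 lay beyond 13 Mb, as did 176 of the 237 X regions called in all 4 libraries. All 5 were 4925 bp wide or wider, where the median of those 237 regions was 2940 bp. The rule passes over regions with a poor rank or no call in 1 library. X 2683298 to 2687553 (4256 bp) ranked 5 and 2 in WT, and 434 and 31 in RNAi dH1. X 15699305 to 15706670 ranked 44 and 96 in WT and 68 in RNAi dH1 replicate 1, and had no call in RNAi dH1 replicate 2.

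By the same rule the leading WT-only regions ranked far lower. X 12790602 to 12792605 took ranks 2272 and 2502 in WT replicates 1 and 2. The others were X 18741810 to 18743936 (ranks 2503 and 2505), X 15374446 to 15377062 (2389 and 2628), X 4529235 to 4531264 (2530 and 2664) and X 4811849 to 4813934 (2613 and 2699). Their highest percentile in a WT list was 39.6. Of the 5, 3 lay between 4 and 13 Mb, as did 40 of all 53 WT-only regions of X. The last of them bordered the gap of 388 kb.

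The 3 dH1-only regions were wider. X 15029826 to 15035200 (5375 bp) ranked 2058 in RNAi dH1 replicate 1 and 2546 in replicate 2, X 14686762 to 14693214 (6453 bp) ranked 2704 and 2800, and X 18324154 to 18327160 (3007 bp) ranked 3665 and 2836. With a minimum score of 100, 0 of these 3 stayed dH1-only. Among the 5 widest merged regions, 2 were called in all 4 libraries, X 20058650 to 20069192 (10543 bp), with 2 peaks in each library, and X 3374710 to 3383800 (9091 bp). The widest, X 2142054 to 2157658 (15605 bp), was called in WT replicate 2 at rank 335 and in RNAi dH1 replicate 1 at rank 2175 only. X 14974532 to 14987616 (13085 bp) was missed by RNAi dH1 replicate 1, and X 14723990 to 14734834 (10845 bp) by both replicates numbered 2. At the ends of the interval, the last regions inside it were X 2005942 to 2011052 and X 20394590 to 20397073, and the first outside were X 1986954 to 1989206 and X 20898041 to 20900848. Of these 4 regions, 3 were called in all libraries and that at 1986954 in 3 of them.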

How the data were processed

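The authors aligned reads to dm3 with Bowtie 0.12.5, keeping every alignment site of a read up to a limit, so that repeats share reads, and removed duplicates. Peaks were called by the authors with MACS 1.4 per ChIP library, the matching input serving as control, without pooling. Each deposited peak has its position and a score, −10 times the log10 of the caller's p-value. The lowest was 50.01, and lists held 3037 to 3925 peaks. Ranks and percentiles used the authors' score within a list only. The alternative with a minimum score put the same cutoff on every list, although scores grow with depth. 4 identical copies were not used. Starts are 1-based. Of 8 samples, inputs entered through the calls alone.

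Merging and tests were run in Python 3.11.15 (scipy 1.17.1, numpy 2.4.6), and plots in matplotlib 3.10.9. Arm interiors ended 2 Mb before the highest peak end. Libraries were compared by exact permutation over 6 labelings (smallest p 0.333) or sign flips (0.125). Intervals are 95% Wilson intervals. Alternatives were equal list lengths, a score of 100 or more, overlap of 50%, merging up to 1000 bp, a block for replicate number, omission of each library, other bins and a comparator without 2R. The code was tested on simulated lists. Named regions were, per class, the 5 with the best worst-case rank, the 5 widest, 3 bins each with the most and fewest regions, the 3 longest gaps, the 3 largest runs and the regions at the ends. Members, tests and lists were chosen with earlier results of these data known. Reads were not analysed here.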

Additional observations from a re-analysis of the deposited data

How the results depend on the processing

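Results between conditions could not pass 0.05 by design, so that only direction and size can be followed. Of 155 values under alternatives, 12 counts moved by over 1.5 times, 6 differences changed sign and 23 kept their sign while their size moved by over 1.5 times, and the cause was not tested. With a minimum score of 100, the difference in median X width was 108 bp and dH1-only regions numbered 1. This cutoff was the same in every list although scores grow with depth, and the part of depth in these values was not tested. At equal list size the difference in median gap was -0.663 kb and dH1-only regions numbered 6, and the difference in X peaks was -61. In bins of 0.5 Mb, 19 of 36 were lower in both RNAi dH1 libraries. Without 1 library, ranges were -6.59 to 0.47 percentile points for the median rank, -0.561 to 2.06 kb for the gap, 56 to 153 WT-only regions, 5 to 19 dH1-only regions, 9 to 17 lower bins and -90 to 3 peaks outside 4 to 13 Mb. The last 2 results, and the values for 4 to 13 Mb, were chosen after seeing the data.

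With replicate number as a block, X peaks differed by -31 and -232 within pairs, with the same mean of -131.5, and the smallest p of that test is 0.5, and no call was possible under this pairing. Deviations from the condition means correlated at -0.142 over all regions and -0.0786 on X between libraries with the same number, and the crossed pairing allowed no call either. Of 13 named regions, 3 changed class with a minimum score of 100 and 1 at equal list size. Unknown depth limits each missing call, since a peak absent from a list may differ only slightly in reads.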

Other observations

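Beyond the interval, X regions followed the same order of libraries only in part. The 66 regions that started up to 2 Mb held 56 and 62 peaks in the WT libraries, and 40 and 23 in the RNAi dH1 libraries, and 19 of them were called in all 4. The 48 regions that started from 20.4 Mb held 45 and 33 peaks in WT, and 32 and 21 in RNAi dH1, and 19 were called in all 4. Both RNAi dH1 libraries were thus below both WT libraries at either end, although by 1 peak at the far end.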
